A study of Mus musculus with 9 samples.

Results

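The SoxB and SoxC genes examined here are 7 members of the Sox family of transcription factors, which bind DNA through a shared HMG box. They were chosen by family and not by a rule on measured values, though with earlier results of these data known. The choice was from 21883 protein-coding genes on chromosomes 1 to 19, X and Y. The 4 SoxB genes were Sox1, Sox2 and Sox3, of the activating SoxB1 group, and Sox21, a SoxB2 repressor. The 3 SoxC genes were Sox4, Sox11 and Sox12. For each gene, peaks were read over the gene body plus 50 kb each side in mm10, a window of 102 to 108 kb. Chromatin immunoprecipitation followed by sequencing (ChIP-seq) had been used to map H3K27ac, a histone acetylation of working promoters and enhancers, and SOX6, a SoxD transcription factor of the oligodendrocyte lineage.

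The cells were mouse oligodendrocyte progenitor cells (OPCs), the dividing precursors of myelinating cells, and O1-positive oligodendrocytes (OLs). Both came from 2 epiblast stem cell lines, EpiSC5 of strain 129SvEv and 129O1 of strain 129S1/SvImJ, each of which is 1 line. All were cultures without SHH, OPCs were grown with basic FGF plus PDGFA, and the OPC stocks had been sorted on CD140a and NG2. For H3K27ac each line has an OPC and an OL list, while SOX6 has OPC lists for both lines and an OL list for EpiSC5. Paired values are given for 129O1 first and EpiSC5 second. The H3K27ac lists held 27731 to 33808 peaks, the OPC SOX6 lists 22883 in 129O1 and 15490 in EpiSC5, and the OL SOX6 list 3949. They hold no read counts, so depth is unknown and presence or absence depends on the length of each list. Over gene bodies plus 2 kb, 5 OPC markers carried 95.3 and 73.8 kb of H3K27ac in OPCs of the 2 lines and 42.4 and 36.0 kb in OL, and 7 oligodendrocyte markers 8.22 and 8.61 kb in OPC and 55.4 and 75.6 kb in OL. Mag, Mog and Mobp had no peak in either OPC list.

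SoxB1 factors keep neural progenitors in a proliferating, undifferentiated state, and SOX21 counteracts them. Sox2 is also a pluripotency gene and is expressed in OPCs. SoxC factors act in progenitors and in newly formed neurons, and SOX4 is known to hold back oligodendrocyte differentiation. All 7 genes are intronless, so most of the window outside their short bodies is flanking sequence.

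The pluripotency genes that accompany Sox2 in epiblast stem cells were nearly bare over their bodies plus 2 kb. With 50 kb each side, as for the members, peaks further out gave some of them calls. Utf1 was called wider in OL (1.73, adjusted p = 0.00582) and Nanog narrower (−1.19, adjusted p = 0.0150) by limma. Pou5f1 and Tdgf1 were not called there, and Zfp42 was not tested. Pou5f1, Utf1, Tdgf1 and Zfp42 had no H3K27ac peak over the body plus 2 kb in any of the 4 lists, and Nanog carried 0.851 and 0.253 kb in OPCs of the 2 lines and 0 kb in both OL lists. Of 7 neuronal markers, 3 or 4 held a peak in each list, with 4.16 and 5.16 kb in OPC and 9.39 and 6.09 kb in OL, and Slc17a6, Gad2 and Neurog2 were at 0 kb in all 4 lists. The 5 astrocyte markers summed to 9.76 and 4.80 kb in OPC and 23.5 and 9.15 kb in OL, with 3 to 5 of them holding a peak. The 4 microglia markers summed to 1.08 and 0.896 kb in OPC and 3.45 and 2.04 kb in OL, with Cx3cr1 and Aif1 at 0 kb in all 4 lists. The part of other cells in the results below was not tested.

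Promoters were read from RefSeq (GRCm38.p6), which held an entry for 6 of the 7 genes, all but Sox3. The 300 bases around the start were under H3K27ac in OPC of both lines at 6 of 6 genes, against 46.5% of protein-coding promoters. All 4 lists covered 5 of 6, against 34.1%. In OL of both lines they were under H3K27ac at 5 of 6, against 34.9%. The exception was Sox1, which kept the mark in 129O1 OLs and had none in EpiSC5 OLs. SOX6 peaks of both OPC lists overlapped the promoters of Sox2, Sox4 and Sox11, 3 of 6, against 6.77% of promoters. In OL, SOX6 overlapped only the Sox2 promoter among the 6, against 7.16%. Of the promoters with SOX6 in EpiSC5 OPCs, 44.2% also had it in OL, and here 1 of 3 did. These 3 promoters are shown because SOX6 peaks overlapped them in both lines. At Sox11 the EpiSC5 summit lay 340 bp before the start, outside the bases shown. Each line gives the 250 bases before the start, 5′ to 3′ on the gene's strand, with CCAAT boxes on either strand (CCAAT or ATTGG) in capitals.
Sox2 (chr3:34649745-34649994, plus strand): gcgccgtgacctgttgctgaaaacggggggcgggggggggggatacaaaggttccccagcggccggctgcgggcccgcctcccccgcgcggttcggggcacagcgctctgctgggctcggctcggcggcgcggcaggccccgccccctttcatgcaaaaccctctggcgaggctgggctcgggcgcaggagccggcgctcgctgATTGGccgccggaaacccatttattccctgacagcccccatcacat
Sox4 (chr13:28953700-28953949, minus strand): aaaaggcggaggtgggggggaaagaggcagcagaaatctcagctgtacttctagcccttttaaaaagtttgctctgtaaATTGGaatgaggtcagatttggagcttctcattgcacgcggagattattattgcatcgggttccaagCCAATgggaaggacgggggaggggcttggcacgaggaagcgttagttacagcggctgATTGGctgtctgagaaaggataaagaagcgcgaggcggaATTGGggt
Sox11 (chr12:27342719-27342968, minus strand): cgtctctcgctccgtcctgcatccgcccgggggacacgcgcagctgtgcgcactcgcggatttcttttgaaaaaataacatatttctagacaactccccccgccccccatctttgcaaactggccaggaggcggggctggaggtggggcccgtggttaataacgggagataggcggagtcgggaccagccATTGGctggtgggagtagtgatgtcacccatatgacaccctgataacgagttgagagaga
The CCAAT box of Sox2 began 46 bases and that of Sox11 60 bases before the start, while Sox4 had 4, at 171, 104, 47 and 8 bases. CCAAT or ATTGG lay in these 250 bases at 5 of the 6 members, all but Sox21, and at 36.3% of 17491 protein-coding promoters. The octamer ATGCAAAT, read on either strand, was in 1 of the 6 (Sox12) and in 1.61% of promoters. ACAAT or ATTGT, taken as a SOX core, was in 0 of the 6 and in 25.9% of promoters. Other letters that Sox proteins can bind were not searched for, so this does not show an absence of SOX sites. The motifs were chosen with the sequences in view, and a match is a description of letters, not of a bound site. GC content differed among the 3, at 72% in Sox2, 58% in Sox11 and 50.8% in Sox4.

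**Figure D1:**
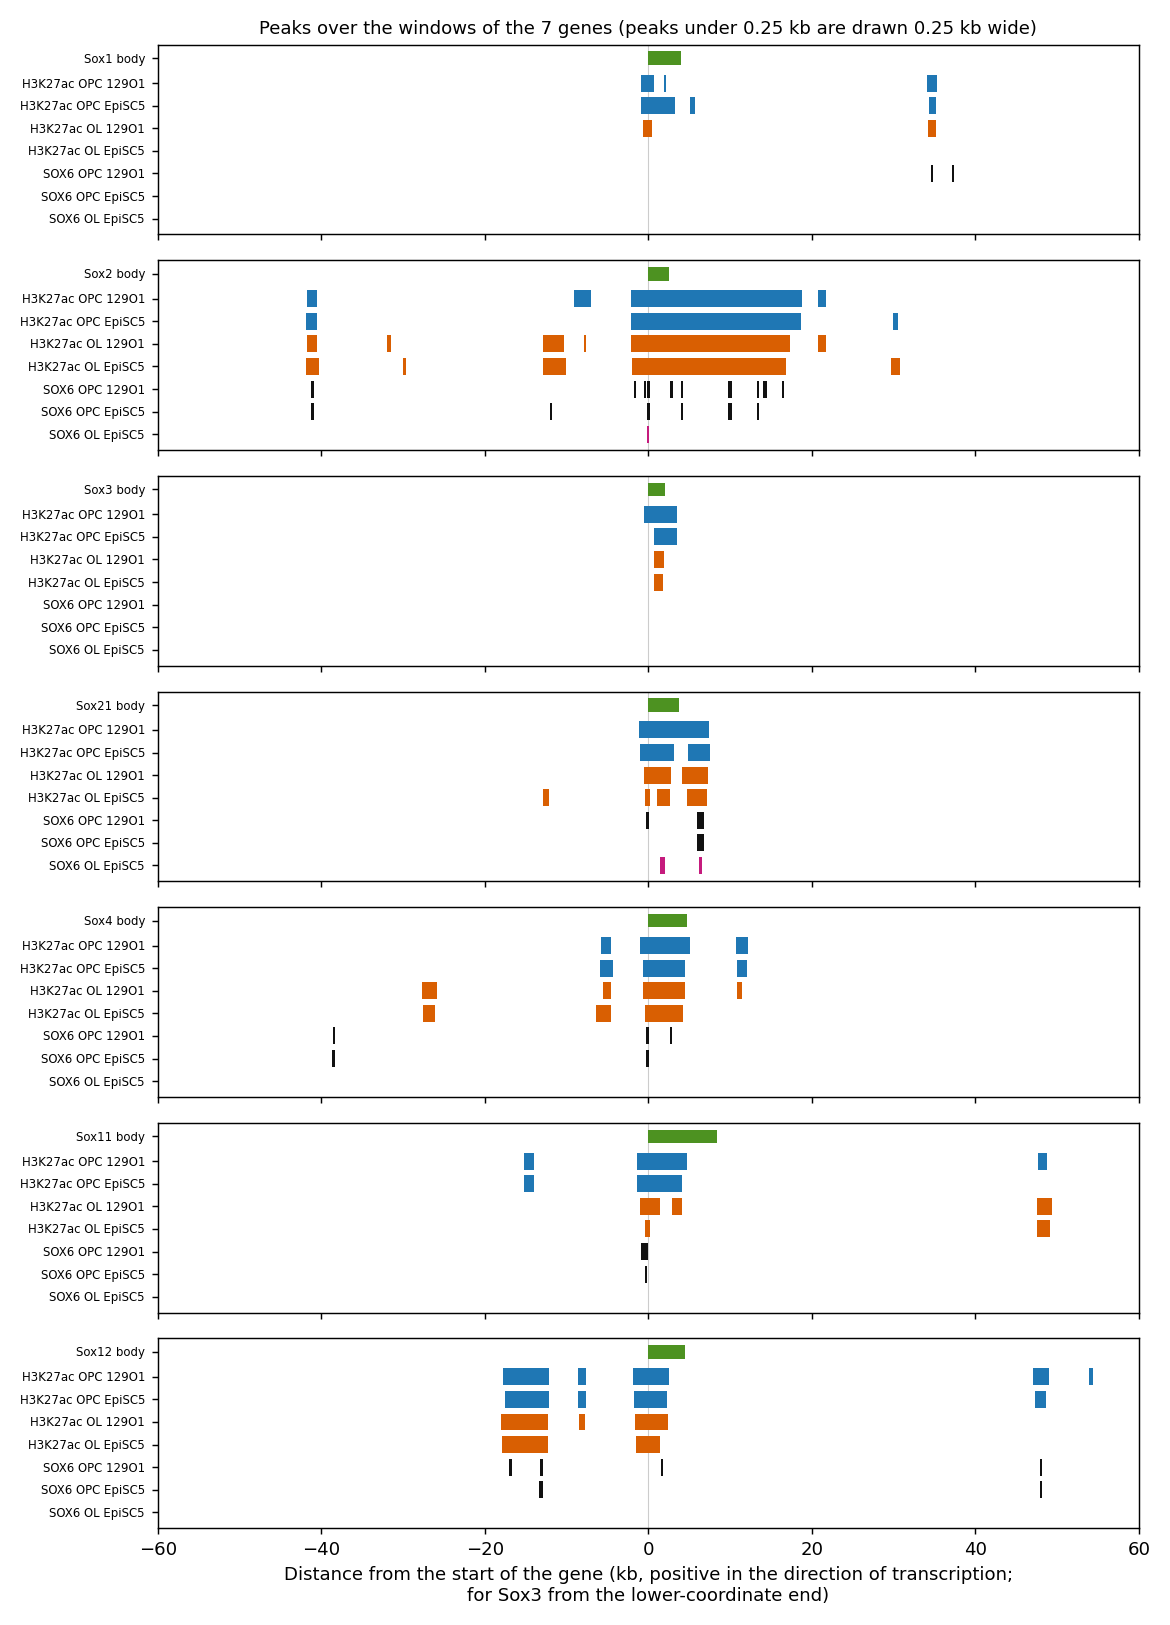
Peaks of the 7 lists over each gene's window, plotted by distance in kb from the start of the gene, or for Sox3 from its lower-coordinate end. Blue bars are OPC H3K27ac, orange bars OL H3K27ac, black bars OPC SOX6, magenta bars OL SOX6 and green bars the gene body. Sox2 carries the longest block of H3K27ac in all 4 lists, and OL SOX6 appears only at Sox2 and Sox21.

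H3K27ac breadth, the length of the window that peaks cover, asked which members gained or lost acetylated chromatin in OL. Of the 7 genes, 4 were narrower in OL (Sox1, Sox3, Sox11 and Sox12), 0 were wider and 3 were not called (Sox2, Sox21 and Sox4). All 7 passed the filter of a mean of 1 kb. Among all 16271 genes tested, 22.5% were called narrower and 14.6% wider, and the median change was −0.21. The median of the 7 members was −0.48. Changes are on the log2 scale of covered kb plus 1, after scaling to equal total covered length per list, a scale that shrinks the changes of sparsely covered genes. Tests were by limma with Benjamini-Hochberg adjustment over all genes, with 2 lines per state. In these bulk cultures fewer cells with the mark and less of it per cell cannot be told apart. In 5 of 7 genes both OL values lay below both OPC values, against 47.7% of all genes tested, and in 0 of 7 above, against 25.8%.

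**Figure D2:**
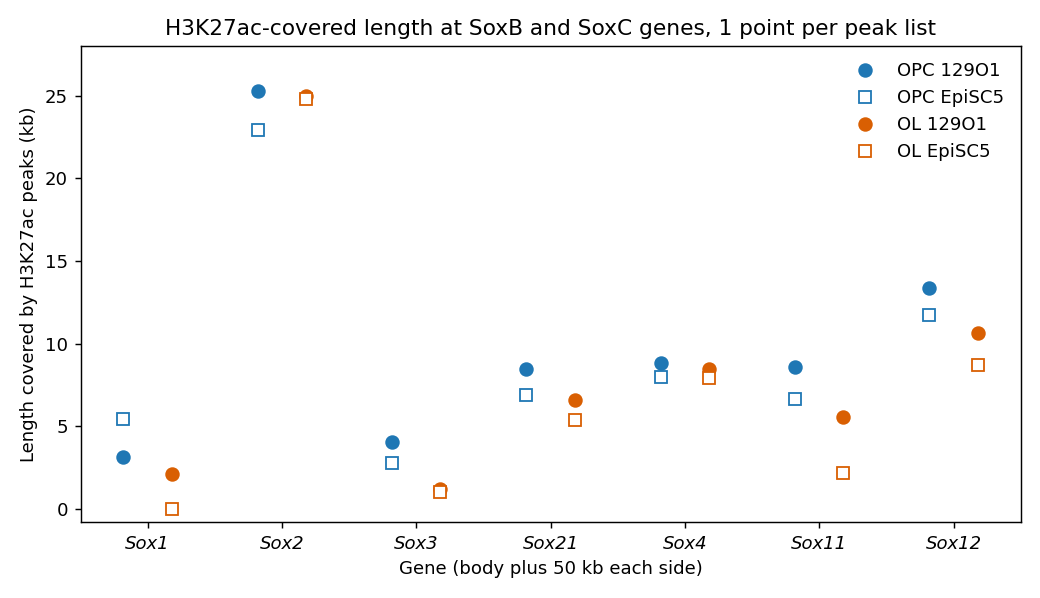
Length in kb covered by H3K27ac peaks in each gene's window, without scaling, 1 point per list. Blue is OPC, orange OL, circles 129O1 and squares EpiSC5. Groups do not overlap at Sox1, Sox3, Sox21, Sox11 and Sox12, and they overlap at Sox2 and Sox4.

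As a share of the window, H3K27ac was highest at Sox2, with 24.6% and 22.3% in OPCs of the 2 lines and 24.4% and 24.2% in OL. Sox12 followed with 12.8% and 11.2% in OPC and 10.2% and 8.33% in OL. Sox4, Sox21 and Sox11 lay close together in OPC, between 6.11% and 8.43%, and their ranges there overlapped. In OL their values did not overlap, though Sox21 and Sox11 came close, with Sox4 at 8.09% and 7.57%, Sox21 at 6.38% and 5.18% and Sox11 at 5.13% and 2.0%. Sox1 (3.01% and 5.25%) and Sox3 (3.94% and 2.72%) were lowest in OPC, with overlapping values. In OL, Sox1 held 2.02% and 0% and Sox3 1.20% and 1.0%, and the values of Sox1 overlapped those of Sox3 and, across the lines, of Sox11.

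Sox2 (chromosome 3, 34649995 to 34652461), whose product sustains progenitor identity, showed no called change in breadth. Peaks covered 25.3 kb in 129O1 OPCs and 22.9 kb in EpiSC5 OPCs, against 25.0 and 24.8 kb in OL. The OL values lay between the 2 OPC values. The change was −0.09 ± 0.15 (limma SE, n = 2 lines, adjusted p = 0.656). Its share of the window ranked above at least 99.6% of protein-coding genes in each list. Most of the length was 1 region of 20906 bp from 34647867 to 34668772, the 18th widest of 49677 merged regions, which begins 2128 bp before the start and runs through the gene into its 3′ flank, inside the long noncoding RNA gene Sox2ot. It held 20.9 and 20.7 kb in OPC and 19.4 and 18.9 kb in OL. A flank region from 34608084 to 34609673, 40.3 to 41.9 kb upstream, was also in all 4 lists, with 1.33 and 1.43 kb in OPC and 1.19 and 1.53 kb in OL, while others were in 1 state, 1 line or 1 list. A region of 2909 bp from 34637053 to 34639961, inside Sox2ot and over Mir1897, was present in OL of both lines, with 2.58 and 2.91 kb, and in neither OPC list. A region from 34640930 to 34642982 held 2.05 kb in 129O1 OPCs, 0.222 kb in 129O1 OLs and none in EpiSC5.

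Sox1 (chromosome 8, 12395519 to 12399555), another SoxB1 factor of early neural cells, was called narrower. Peaks covered 3.14 kb in 129O1 OPCs and 5.46 kb in EpiSC5 OPCs, against 2.10 and 0 kb in OL. Both OL values were below both OPC values, but EpiSC5 carried most of the change, which was −1.69 ± 0.50 (limma SE, adjusted p = 0.0311), with −0.45 in 129O1 and −2.93 in EpiSC5. The region over the gene, from 12394636 to 12398724, held 1.93 and 4.09 kb in OPC and 1.11 and 0 kb in OL. A further region of 1207 bp about 34 kb downstream of the start, within Sox1ot, was also missing from EpiSC5 OLs alone. The call was lost without the cell line term, and also without that library or without either OPC list. Fits without 1 list dropped the cell line term too, so a call lost in them cannot be put down to the missing list alone. Without EpiSC5 OLs the change was −0.93, without 129O1 OPCs −2.17 and without EpiSC5 OPCs −1.21. With all 4 lists and no cell line in the model adjusted p was 0.0642 (limma).

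Sox3 (chromosome X, 60891366 to 60893430), the X-linked SoxB1 gene, had a single H3K27ac region in its window, present in all 4 lists and narrower in OL. It spanned 60890855 to 60894877 and held 4.02 and 2.77 kb in OPCs of the 2 lines and 1.22 and 1.02 kb in OL. The groups did not overlap, and the 2 lines gave changes of −1.18 and −1.08. The change was −1.13 ± 0.24 (limma SE, adjusted p = 0.00963). Over the gene body alone, an alternative chosen after the data were seen, it was −0.42 and not called (adjusted p = 0.108, limma). Without either OPC list, in fits that also dropped the cell line term, Sox3 was not called and kept a change of −1.07 and −1.19. No SOX6 peak of any list lay in its window.

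Sox21 (chromosome 14, 118233233 to 118237030), the SoxB2 repressor, had 8.47 kb in 129O1 OPCs and 6.86 kb in EpiSC5 OPCs, against 6.62 and 5.38 kb in OL. Both OL values were below both OPC values. The change of −0.43 ± 0.17 was not called (limma SE, adjusted p = 0.0761). Nearly all of it was 1 region of 8693 bp, from 118229445 to 118238137, with 8.47 and 6.86 kb in OPC and 6.62 and 4.67 kb in OL. With peaks limited to the higher-scoring 50% per list the change was −1.32 and was called (adjusted p = 0.0319, limma).

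Among the SoxC genes, Sox11 (chromosome 12, 27334268 to 27342718) was called narrower. Peaks covered 8.58 kb in 129O1 OPCs and 6.62 kb in EpiSC5 OPCs, against 5.56 and 2.17 kb in OL, without overlap between the groups. The change was −1.03 ± 0.24 (limma SE, adjusted p = 0.0130), with −0.59 in 129O1 and −1.47 in EpiSC5. The region over its start, from 27337981 to 27344127, held 6.15 and 5.47 kb in OPC and 3.78 and 0.587 kb in OL. A region of 1324 bp from 27356658 to 27357981, 13.9 to 15.3 kb upstream, was present in OPC of both lines and in neither OL list. A region 47.5 to 49.3 kb downstream of the start went the other way, with 1.11 and 0 kb in OPC and 1.79 and 1.58 kb in OL, and the authors' fold enrichment there, 5.82 and 6.83, was the highest in the window in both OL lists. Sox11 was not called from the higher-scoring 50% of peaks (−1.11, adjusted p = 0.0993, limma). It was also not called without EpiSC5 OLs (−0.60) or without either OPC list (−1.04 and −1.03), in fits that also dropped the cell line term. With 100 kb each side its change was −0.54 (adjusted p = 0.0421, limma).

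Sox4 (chromosome 13, 28948919 to 28953699) was not called. It had 8.83 kb in 129O1 OPCs and 8.01 kb in EpiSC5 OPCs, against 8.48 and 7.94 kb in OL, and the groups overlapped. The change was −0.16 ± 0.16 (limma SE, adjusted p = 0.449). The region over the gene, from 28948651 to 28954715, held 6.07 and 5.20 kb in OPC and 5.08 and 4.62 kb in OL. A region of 1795 bp from 28979550 to 28981344, 25.9 to 27.6 kb upstream and in no annotated gene, was present only in OL of both lines among the 4 lists. It held 1795 and 1530 bp there, at a fold enrichment of 6.38 and 5.10, the highest in the window in both OL lists. By the authors' −log10 q it was not the highest, at 19.5 and 11.6 against 28.8 and 15.7 for the region over the gene. A region 10.7 to 12.2 kb downstream of the start held 1.51 and 1.27 kb in OPC, 0.578 kb in 129O1 OLs and 0 kb in EpiSC5 OLs.

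Sox12 (chromosome 2, 152393611 to 152398046), the remaining SoxC gene, had 13.4 and 11.7 kb in OPC and 10.6 and 8.70 kb in OL, without overlap. The change was −0.48 ± 0.16 and was called narrowly (limma SE, adjusted p = 0.0476). It lost the call in 14 of 15 alternative fits, the exception being the filter at a mean of 3 kb, with adjusted p from 0.0426 to 0.682 (limma) and changes from −0.57 to −0.08. Its window is shared with 4 other protein-coding genes, and the widest region in it, 5806 bp over Zcchc3 and 6820408C15Rik, held 5.56 and 5.42 kb in OPC and 5.72 and 5.69 kb in OL. The region over Sox12 itself, from 152395520 to 152399876, held 4.36 and 3.94 kb in OPC and 4.10 and 3.0 kb in OL. A region of 1953 bp from 152349034 to 152350986, over the noncoding gene Gm14164, held 1.95 and 1.39 kb in OPC and was in neither OL list.

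**Figure D3:**
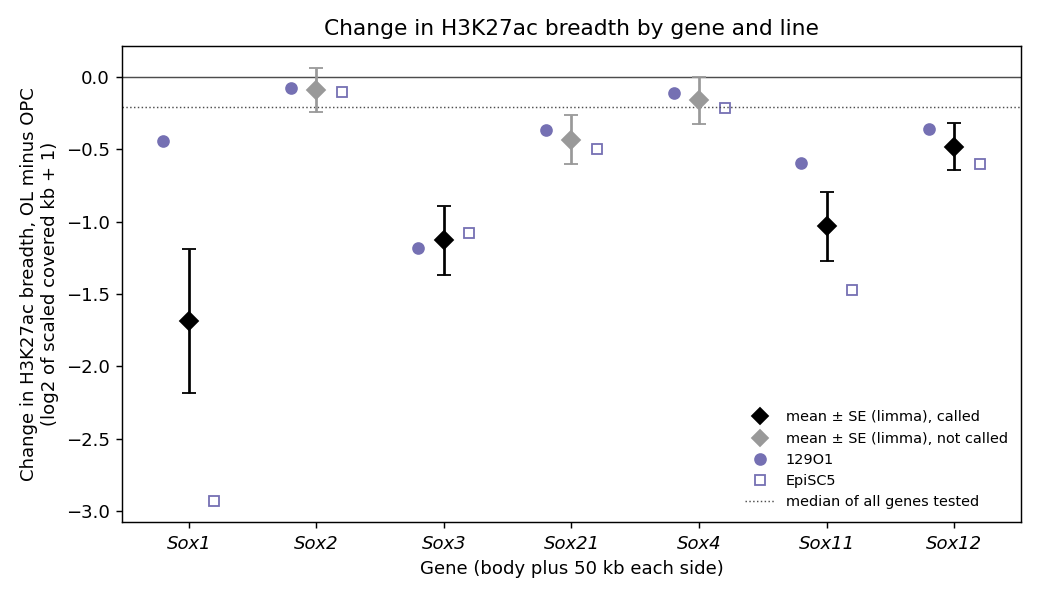
Change in H3K27ac breadth, OL minus OPC, on the log2 scale of scaled covered kb plus 1. Diamonds with bars are the limma mean and SE, black where called, circles are 129O1 alone, squares EpiSC5 alone, and the dotted line is the median of all genes tested (−0.21). The lines lie close together at Sox3 (−1.18 and −1.08) and far apart at Sox1 (−0.45 and −2.93).

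Counted as regions, the 7 windows held 26. Of these 9 (34.6%) were present in all 4 lists, against 30.1% of all merged regions. OPC of both lines alone held 2 (7.69%), against 11.1%, and OL of both lines alone held 2 (7.69%), against 16.7%. The 2 OPC regions were the upstream one of Sox11 and the Gm14164 one of Sox12, and the 2 OL regions were those of Sox2 and Sox4 above. Another 2 were found in both states of 129O1 alone, against 2.4%, and 1 in both states of EpiSC5 alone, against 0.451%, all at Sox2. A region in all 4 lists occurred in 6 of 7 windows, all but that of Sox1, against 69.9% of all genes and 54.8% of those under 10 kb. By window, an OPC region of this kind occurred at 2 of 7 members, against 27.9% of all genes and 19.2% of those under 10 kb, and an OL region at 2 of 7, against 38.8% and 25%. An exact permutation test of 2 lists against 2 has a smallest p of 0.333, and none was run on these counts.

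The SOX6 lists asked where this SoxD factor lies at its relatives' genes. SOX6 peaks lay in the windows of 5 of 7 members in OPC of both lines, against 53.9% of all protein-coding genes and 40.4% of those under 10 kb. Peaks in the windows numbered 22 and 12 for the OPC lists and 3 for the OL list. Of the 24 sites these form, 11 were in both OPC lists and 3 in OL. Peaks of EpiSC5 were found in 129O1 for 11 of 12, against 90.3% of that list, and peaks of 129O1 in EpiSC5 for 11 of 22, against 60.8%. Most lay within H3K27ac of the same line and state, 20 of 22 and 10 of 12 in OPC, against 69.4% and 68%, and 3 of 3 in OL, against 74.1%. Of the 3 OL peaks, 2 lay on OPC sites of EpiSC5, against 38.5% of the OL list.

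The highest-scoring SOX6 peak of the whole genome in both OPC lists lay in the Sox21 window. It ran from 118230216 to 118231084, in no annotated gene, with its summit 2574 bp past the 3′ end of Sox21 in 129O1 and 2578 bp past it in EpiSC5. The summits were 4 bp apart. The authors' fold enrichment was 46.9 in 129O1 and 43.4 in EpiSC5 and their −log10 q was 451 and 426, rank 1 of 22876 and of 15487 peaks on the chromosomes used. In EpiSC5 OLs a peak lay on the same site at a fold of 7.37 and a −log10 q of 14.1, rank 1256 of 3893. Of the 10 highest OPC peaks of EpiSC5, to which it belongs, 70% were overlapped in OL, and of the 100 highest 45%. Ranks and folds of lists of different lengths are given as positions within each list and not as a change. H3K27ac covered the site in all 4 lists. Another OL peak, with no OPC peak under it, lay within the Sox21 body from 118235034 to 118235570 (fold 5.51). One more site, on the promoter, was in 129O1 OPCs alone (fold 3.34).

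**Figure D4:**
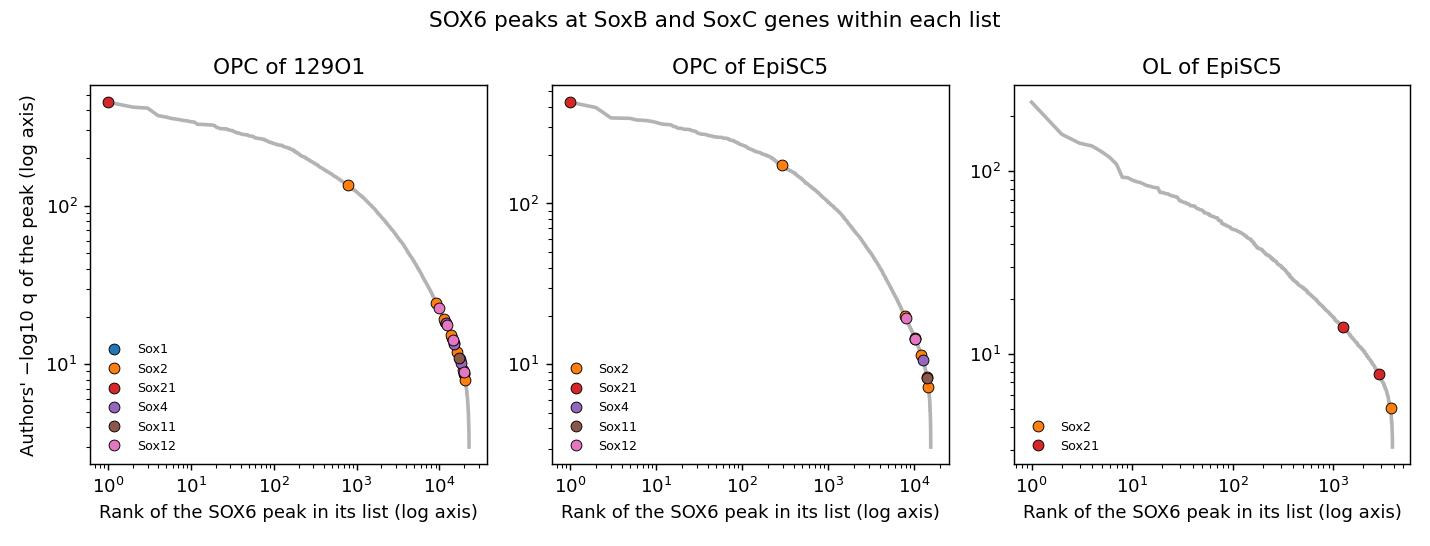
Authors' −log10 q of every SOX6 peak by its rank in the list (grey line), both on log axes, with the peaks in the members' windows as coloured points. Sox21 stands at rank 1 in both OPC lists, a Sox2 peak at ranks 785 and 288, and the other member peaks of the OPC lists at rank 7788 or lower in the list.

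Sox2 had the most SOX6 peaks of the 7 genes, 10 in 129O1 OPCs, 6 in EpiSC5 OPCs and 1 in EpiSC5 OLs. Covered length was 3.24, 1.83 and 0.203 kb, above 99.4% of genes as a share of the window in 129O1 OPCs and 99.2% in EpiSC5 OPCs. Its strongest site, from 34659763 to 34660283, lay 10.0 kb downstream of the start in the wide H3K27ac region, at a fold of 13.2 (rank 785) in 129O1 and 16.4 (rank 288) in EpiSC5, and OL had no peak there. Of the 300 highest OPC peaks of EpiSC5, 31.7% were overlapped in OL, and of all its peaks 9.61%. The OL peak was the one at the promoter, with summits 25 bp after the start in 129O1, 24 bp before it in EpiSC5 and 17 bp after it in OL, and folds of 6.44, 3.47 and 4.23. In EpiSC5 OPCs a further peak, from 34637927 to 34638145 (fold 5.28, rank 10145 of 15487), had no counterpart in 129O1 OPCs. It lay where H3K27ac was absent from both OPC lists and present in both OL lists.

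At the SoxC genes SOX6 peaks were in OPC alone, at ranks from 9882 to 19637 of 22876 in 129O1 and from 7918 to 13993 of 15487 in EpiSC5. Sox4 had one on its promoter in both lines, with summits 115 and 117 bp before the start and folds of 4.01 and 3.12. It also had one 38.5 kb upstream, from 28992056 to 28992356, with a fold of 5.35 in each line, outside H3K27ac in all 4 lists. Sox11 had one site, overlapping its promoter, with folds of 3.73 in 129O1 and 3.40 in EpiSC5. Its summits were 84 and 340 bp before the start, 256 bp apart. Sox12 had 4 peaks in 129O1 and 2 in EpiSC5, none of them on its promoter, and the one on the OPC region at Gm14164 had folds of 4.94 and 4.46. Sox1 had 2 peaks in 129O1 OPCs alone (folds 3.93 and 3.23), within Sox1ot.

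Of the 12 OPC peaks of EpiSC5 in the windows, 2 were overlapped in OL, those on the Sox2 promoter and past the Sox21 end, against 9.61% of the list. In OL, 2 of 7 windows held SOX6, against 29.6% of all genes and 24.2% of those under 10 kb. Of the 5 genes with SOX6 in EpiSC5 OPCs, 3 had none in OL (Sox4, Sox11 and Sox12), against 57% of all such genes and 56.2% of those under 10 kb. OL H3K27ac covered 10 of these 12 sites in EpiSC5, against 55.7% of the list, and 19 of 22 in 129O1, against 60.9%. In EpiSC5 these were not the same sites as the 10 under OPC H3K27ac, since the Sox2 site from 34637927 was under the mark in OL and not in OPC, and the Sox12 site from 152349866 in OPC and not in OL. The OL list had no replicate and was the shortest. When every list was trimmed by score to the size of the OL list, the windows held 2 peaks in each OPC list and 3 in OL, without an excess in OPC.

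Known partners and targets of SoxB factors were read in the same windows from a fixed list. This list and that of SoxC targets were chosen with earlier results of these data known. Of its 12 genes 10 were tested. Of these 6 were narrower in OL, against 22.5% of all genes, 0 wider, against 14.6%, and 4 not called. Their median was −0.58, against −0.21 for all genes. The 6 were the POU factors Pou3f2, Pou3f3 and Pou3f4, which bind DNA with SoxB proteins, the neural factor Pax6, the RNA-binding protein gene Lin28b and Nes, the intermediate filament nestin, a target of SOX2 with POU factors. Pou3f4, with the lowest value of the list, had 3.80 and 6.91 kb in OPC and 0.782 and 0 kb in OL, a change of −2.32 ± 0.40 (limma SE, adjusted p = 0.0047). Lin28b had 3.99 and 4.91 kb in OPC and 0.761 and 0.379 kb in OL (−1.90 ± 0.28). The chromatin remodeller Chd7, a SOX2 partner, had a change of 0.06 (limma, adjusted p = 0.771) and no call. The other genes without a call were Lin28a, Pou5f1 and Pou3f1, and they went both ways. Lin28a was wider in both lines, by 0.53 in 129O1 and 0.47 in EpiSC5, with a limma mean of 0.50 (adjusted p = 0.0672). Pou5f1 had a positive mean, 0.37 (adjusted p = 0.382, limma), from −0.20 in 129O1 and 0.93 in EpiSC5. Pou3f1 had a negative one, −0.32 (adjusted p = 0.168, limma). Zic1 and Zic2 had no H3K27ac peak in any list and were not tested. Of 10 SoxC target genes 8 were tested. Of these 2 were narrower, close to the 22.5% of all genes, 0 wider, against 14.6%, and 6 not called. Their median was −0.52, against −0.21 for all genes. The 2 were Map2, a microtubule protein of neurons (−1.50 ± 0.17), and Ccnd1, cyclin D1 (−1.99 ± 0.20). Dcx and Tubb3, neuronal cytoskeleton genes controlled by SoxC factors, stood at −0.69 (adjusted p = 0.0544) and −0.36 (adjusted p = 0.131) in limma and were not called.

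The protein-coding genes most like each member were taken by the Euclidean distance of log2 covered kb plus 1 over the 7 lists, outside the member's own window. Sox12 was nearest to another Sox gene, Sox15, at 0.11, and Sox4 to 4933440N22Rik and Hnrnpf at 0.17 and 0.18. Sox3 (Xkr9 and Pdcl3), Sox11 (Ripk1 and Rpl21) and Sox21 (Taf12 and Kmt2c) had their nearest genes at 0.23 to 0.31. Sox2, at 0.41 and 0.47 from Prex1 and Dnah2, and Sox1, at 0.75 and 0.77 from Inhbb and Gm6676, had the most distant ones.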

How the data were processed

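Peak lists from ChIP-seq were read for 7 of the 9 labelled samples. The 2 inputs were not analysed here. The submitters' processing notes name Bowtie2 2.3.2, Trim Galore 0.3.1, bedtools, deepTools and Picard, and mm10 as the build. No peak caller is given in the sources used here. Each deposited list comes from 1 library. The deposited score equals 10 times the authors' −log10 q, truncated, in nearly all rows. Fold enrichment, a ratio deposited with −log10 p and −log10 q, served only to describe peaks. Ranks and selections by score inside 1 list used the authors' −log10 q.

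Chromosomes 1 to 19, X and Y were used. Overlap meant at least 1 bp, and overlapping H3K27ac peaks formed merged regions. Covered length in each gene's window was scaled to equal totals, and log2 of kb plus 1 was tested with limma 3.58.1 (trend, terms for cell line and state, residual df 1, prior df 7.13) where its mean reached 1 kb. Each line gave both an OPC and an OL culture, which pairs them. Calls needed an adjusted p below 0.05 and 1 direction in both lines. With prior df 7.13 against residual df 1, the SE and p-values rest mostly on variance shared over all genes tested. The spread of the 2 lines at a gene adds less, so a call does not show that they agree in size. Gene positions are those of RefSeq on GRCm38.p6, the assembly also called mm10. All members are named, with called genes of the fixed lists and the 2 nearest genes by profile. Other names were picked after their values were seen. Members and lists were chosen with earlier results of these data known. Alternatives varied the pseudocount, filter, scaling, window, peak selection, overlap rule, model and libraries. Fits without 1 list had no cell line term, so they did not pair OPC with OL.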

Additional observations from a re-analysis of the deposited data

How the results depend on the processing

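Peak lists hold no counts, so depth cannot be weighed, and a shorter list has fewer sites by itself. Sox3 kept its call in 7 of 9 alternative fits with all 4 lists, Sox11 in 8 of 11, Sox1 in 3 of 10 and Sox12 in 1 of 11, and the direction of these 4 held in every fit run. The totals differ because a gene below the filter of a fit was not tested. Sox3 dropped out from the higher-scoring 50% of peaks and with the filter at a mean of 3 kb. Sox1 dropped out with the 3 kb filter. Where no cause is shown by the alternative itself, the cause was not tested.

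Genes called narrower and wider over the whole table numbered 3662 and 2382. They were 0 and 0 with no filter on covered length (limma, 5881 genes at an unadjusted p under 0.05), 1157 and 1154 from the higher-scoring 50% of peaks, 2041 and 1562 with 10 kb each side, and, chosen after the data were seen, 1015 and 1372 over the gene body and 1252 and 1171 with 2 kb each side. Without 1 list they ranged from 0 to 3722 and from 0 to 1860, with both at 0 without either OPC list and 620 and 772 without EpiSC5 OLs; in those fits the state with 1 library is assumed to vary like the other. The fits without 1 list also had no cell line term. Without scaling the median change was −0.09 against −0.21, a shift of 0.12, and 50.8% of calls were wider against 39.4%. With no filter, none of the 4 members was called, with adjusted p of 0.354 for Sox1 (−1.69), 0.164 for Sox3 (−1.13), 0.217 for Sox11 (−1.03) and 0.169 for Sox12 (−0.48), by limma.

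The cell line pairs OPC with OL. With no replicate block Sox1 (−1.69, adjusted p = 0.0642) and Sox12 (−0.48, adjusted p = 0.0572) lost their calls in limma, and Sox3 and Sox11 kept theirs. Sox1 was also not called with a pseudocount of 0.25 kb (−2.68), from the higher-scoring 50% of peaks (−1.83), with 10 kb (−1.61), with 2 kb (−1.61) and over the body alone (−1.41). Sox12 was not called with the 0.25 kb pseudocount (−0.51), without scaling (−0.35), with equal numbers of peaks (−0.42), from the higher-scoring 50% (−0.36), with 10 kb (−0.46), 100 kb (−0.082), 2 kb (−0.30) or the body alone (−0.31). Sox11 was not called from the higher-scoring 50% (−1.11) or with 2 kb (−1.43), and Sox3 over the body alone (−0.42). Sox21 gained a call from the higher-scoring 50% (−1.32). Of the genes not called, Sox2 turned to 0.048 without scaling and 0.10 with 100 kb, and Sox4 to 0.012 from the higher-scoring 50%.

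Leaving out 1 list or 1 line gave −2.93 to −0.45 for Sox1, −1.47 to −0.59 for Sox11, −0.60 to −0.36 for Sox12, −1.19 to −1.07 for Sox3, −0.50 to −0.37 for Sox21, −0.27 to −0.05 for Sox4 and −0.21 to 0.028 for Sox2. Sox2 turned to 0.028 without EpiSC5 OPCs and 0.0135 without 129O1 OLs. Fits without 1 list also dropped the cell line term, so a turn of sign in them cannot be put down to the missing list alone.

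Regions held by OPC alone numbered 4 in place of 2 when peaks had to cover at least 50% of the region. From 1 line alone the counts ranged from 10 to 16 for regions in both states, from 3 to 7 for OPC and from 3 to 5 for OL. SOX6 peaks at the members, 22, 12 and 3 in 129O1 OPCs, EpiSC5 OPCs and OL, were 5, 2 and 1 from the higher-scoring 50%, 2, 2 and 3 with equal numbers of peaks, and 12, 6 and 3 with 10 kb each side.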

Other observations

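The other Sox genes of the fixed list, also chosen with earlier results of these data known, were read in the same windows. Of 12 genes 10 were tested, 1 was narrower, against 22.5% of all genes tested, 0 were wider, against 14.6%, and 9 were not called. Their median change was −0.05, against −0.21 for all genes. The narrower one was Sox5, a SoxD gene, with 19.2 and 20.5 kb in OPCs of the 2 lines and 10.5 and 16.6 kb in OL (−0.69 ± 0.17, limma SE, adjusted p = 0.0158). Sox10, the SoxE gene that drives myelin gene transcription, had 23.2 and 19.4 kb in OPC and 24.6 and 23.4 kb in OL (0.03 ± 0.15, not called). Sox9, the SoxE gene of glial progenitors and astrocytes, stood at −0.53 ± 0.19 (adjusted p = 0.0584, limma, not called). Sox14, the other SoxB2 gene, and Sox17, a SoxF gene of endothelium and endoderm, had no H3K27ac peak in any of the 4 lists.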
